A study of Mus musculus with 9 samples.

Results

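Gabra6, Pcp2, Cbln3, Cbln1, Car8, Neurod1, Zic1, Zic2, Fat2 and Barhl1 are genes of cerebellar neurons, and their levels were followed through the 9 midbrain libraries of the DJ-1 mouse study. They are 10 of the 26602 genes with a count in at least 1 library. The 10 genes were chosen by their levels in these same libraries, after Gabra6, Pcp2 and Cbln3 had been seen to be high in DJ-1+/+ replicate 1, so what follows on that library is a description and carries no test. The libraries came from midbrain that included the substantia nigra, the nucleus whose dopaminergic neurons degenerate in Parkinson's disease. Mice aged 3 to 4 months were either DJ-1+/+ (n = 4) or DJ-1-/- (n = 5), where DJ-1, encoded by Park7, is a redox-sensitive protein mutated in familial Parkinson's disease. The targeted Park7 allele was constitutive and thus present in every cell, the line had been backcrossed to C57BL/6 for 7 generations, and the labels give no sex. One library was made per animal with a 3′ mRNA-seq kit (QuantSeq), which sequences the 3′ end of each messenger RNA and counts every molecule once by its unique molecular identifier (UMI). Levels are given as counts or as cpm, that is, counts per 1000000 counts of the library.

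The cerebellum lies directly behind the midbrain. Its granule cells are small glutamatergic neurons, and its Purkinje cells are large GABAergic neurons that form the output of the cerebellar cortex. Granule cells arise from progenitors that need ZIC1 and ZIC2, zinc-finger transcription factors, and pass through a stage that depends on NEUROD1, a basic helix-loop-helix factor. BARHL1 is a homeodomain factor of the same lineage. Mature granule cells make GABRA6, a GABA-A receptor subunit, FAT2, a large protocadherin, and the cerebellins CBLN1 and CBLN3. CBLN1 is secreted from granule cells and takes part in forming the synapse between the granule cell axon and the Purkinje cell, and CBLN3 is secreted only in complex with CBLN1. Purkinje cells make PCP2, a modulator of G-protein signalling, and CAR8, a carbonic anhydrase relative without enzyme activity that binds the inositol trisphosphate receptor ITPR1. Several of these genes are not exclusive to the cerebellum, and ZIC1, ZIC2, BARHL1, NEUROD1 and CBLN1 are made in other brain regions as well.

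Library totals ran from 841974 to 886085 counts in the DJ-1+/+ mice and from 967751 to 1098125 in the DJ-1-/- mice. The totals of the genotypes thus did not overlap. In each library the most abundant gene had only between 1040 and 1359 counts, so that large levels may be compressed in these files, and this was not tested. A level of 3 counts, taken as the limit of what can be shown, corresponded to between 2.73 and 3.56 cpm, which covers counting error only. Park7 counts were 132, 105, 113 and 118 in DJ-1+/+, and in DJ-1-/- mice 23, 29, 14, 19 and 19, with no overlap between the genotypes. The dopaminergic markers Th (between 33.9 and 115 cpm) and Slc6a3 (between 23.3 and 130 cpm) were present in all 9 libraries.

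Of the 10 genes, 7 matched a promoter window in the RefSeq table (GRCm38.p6), which spans 250 bases before to 50 bases after a transcript start. The windows of Gabra6 (chr11:42321023-42321322), Pcp2 (chr8:3625498-3625797) and Cbln3 (chr14:55884207-55884506) are shown because these genes differed most between DJ-1+/+ replicate 1 and the other libraries. That of Zic1 (chr9:91365719-91366018) is shown because Zic1 did not follow them. All 4 genes are on the minus strand, and each sequence reads 5′ to 3′ along the gene. Capitals mark a match, on either strand, to AGGTCA, a core bound by nuclear receptors such as RORA, to the E-boxes CAGATG and CAGCTG, or to TAATTG, a core bound by homeodomain proteins.
Gabra6: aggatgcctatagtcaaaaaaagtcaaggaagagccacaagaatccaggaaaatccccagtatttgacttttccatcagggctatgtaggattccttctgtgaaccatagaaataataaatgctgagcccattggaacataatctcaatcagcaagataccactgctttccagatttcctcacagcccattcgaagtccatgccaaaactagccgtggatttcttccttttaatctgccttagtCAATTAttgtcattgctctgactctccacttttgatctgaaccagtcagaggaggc
Pcp2: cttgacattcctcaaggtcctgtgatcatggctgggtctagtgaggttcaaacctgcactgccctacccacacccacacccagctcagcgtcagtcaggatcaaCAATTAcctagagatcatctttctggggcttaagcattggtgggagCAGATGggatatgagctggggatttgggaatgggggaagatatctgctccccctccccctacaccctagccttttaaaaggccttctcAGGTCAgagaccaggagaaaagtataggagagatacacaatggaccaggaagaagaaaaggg
Cbln3: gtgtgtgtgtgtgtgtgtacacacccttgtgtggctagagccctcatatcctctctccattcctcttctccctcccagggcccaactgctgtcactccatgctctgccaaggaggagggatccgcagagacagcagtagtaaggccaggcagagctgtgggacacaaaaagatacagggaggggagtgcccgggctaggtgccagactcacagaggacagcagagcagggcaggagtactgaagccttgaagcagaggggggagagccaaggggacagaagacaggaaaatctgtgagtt
Zic1: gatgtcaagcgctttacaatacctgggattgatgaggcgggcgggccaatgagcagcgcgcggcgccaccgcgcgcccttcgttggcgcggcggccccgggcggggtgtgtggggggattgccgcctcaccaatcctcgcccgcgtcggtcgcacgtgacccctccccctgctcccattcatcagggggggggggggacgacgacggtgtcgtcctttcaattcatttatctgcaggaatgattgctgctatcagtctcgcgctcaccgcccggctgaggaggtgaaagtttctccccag
The Gabra6 window held TAATTG in reverse complement 6 bases before the start. In the Pcp2 window AGGTCA began 12 bases, CAGATG 100 bases and the reverse complement of TAATTG 146 bases before the start. No match to these letters was found in the windows of Cbln3, Zic1 and Neurod1. Fat2 and Barhl1 each held AGGTCA, and Barhl1 also held CAGCTG and TAATTG. Over the 7 windows, AGGTCA was found in 3, TAATTG in 3, CAGATG in 1 and CAGCTG in 1. Among all 32851 windows of the table the shares were 16.3% for AGGTCA, 8.0% for TAATTG, 17.2% for CAGATG and 16.3% for CAGCTG. The GC content was 42.0% for Gabra6, 51.0% for Pcp2, 57.0% for Cbln3 and 65.3% for Zic1, against a median of 52.7% over all windows. The Fat2 window lies 24307 bases from the gene start in GENCODE, and was not shown for that reason. It is nevertheless among the 3 windows counted with AGGTCA. The transcript starts used for Cbln3, Neurod1 and Zic1 lie 136, 115 and 42 bases from the GENCODE start.

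Gabra6, Pcp2 and Cbln3, 2 products of granule cells and 1 of Purkinje cells, were at or near the counting limit in 8 libraries and well above it in DJ-1+/+ replicate 1. Gabra6 (chromosome 11, 42306437 to 42321072, minus strand, GRCm38) was counted 102, 2, 2 and 0 times in DJ-1+/+ replicates 1 to 4 and 0, 1, 0, 0 and 0 times in DJ-1-/- replicates 1 to 5. Its level of 121 cpm in DJ-1+/+ replicate 1 was 52.1 times that of the next highest library (95% interval 14.05 to 436, exact conditional binomial, counting error only). The other 3 DJ-1+/+ libraries and all 5 DJ-1-/- libraries lay in 1 range, at or under the 3-count limit. Pcp2 (chromosome 8, 3623371 to 3625545, minus strand) was counted 79, 0, 2 and 2 times in DJ-1+/+ and 1, 2, 0, 0 and 2 times in DJ-1-/- mice. DJ-1+/+ replicate 1, at 93.8 cpm, was again the one high library, at 40.3 times the next (interval 10.8 to 339). Pet100, which overlaps Pcp2 on the opposite strand, had 67 counts in DJ-1+/+ replicate 1 and between 67 and 90 in the others. Cbln3 (chromosome 14, 55878913 to 55884392, minus strand) was counted 127, 8, 3 and 5 times in DJ-1+/+ and 8, 10, 7, 4 and 2 times in DJ-1-/- mice. It was thus detected above the limit in 6 of the 8 other libraries, between 1.95 and 9.11 cpm, and reached 151 cpm in DJ-1+/+ replicate 1, 16.6 times the next highest (interval 8.72 to 35.4). In bulk tissue, more cells of a type and more RNA per cell cannot be told apart.

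Fat2 was the fourth gene at or near the limit in the other libraries, and it too was highest in DJ-1+/+ replicate 1. Fat2 (chromosome 11, 55250609 to 55336564, minus strand) was counted 22, 0, 7 and 1 times in DJ-1+/+ and 5, 4, 0, 0 and 0 times in DJ-1-/- mice. At 26.1 cpm, DJ-1+/+ replicate 1 was 3.21 times DJ-1+/+ replicate 3, the next highest (interval 1.32 to 8.89). Replicate 3 of DJ-1+/+ and replicates 1 and 2 of DJ-1-/- were also above 3 counts, and the genotypes overlapped.

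**Figure D1:**
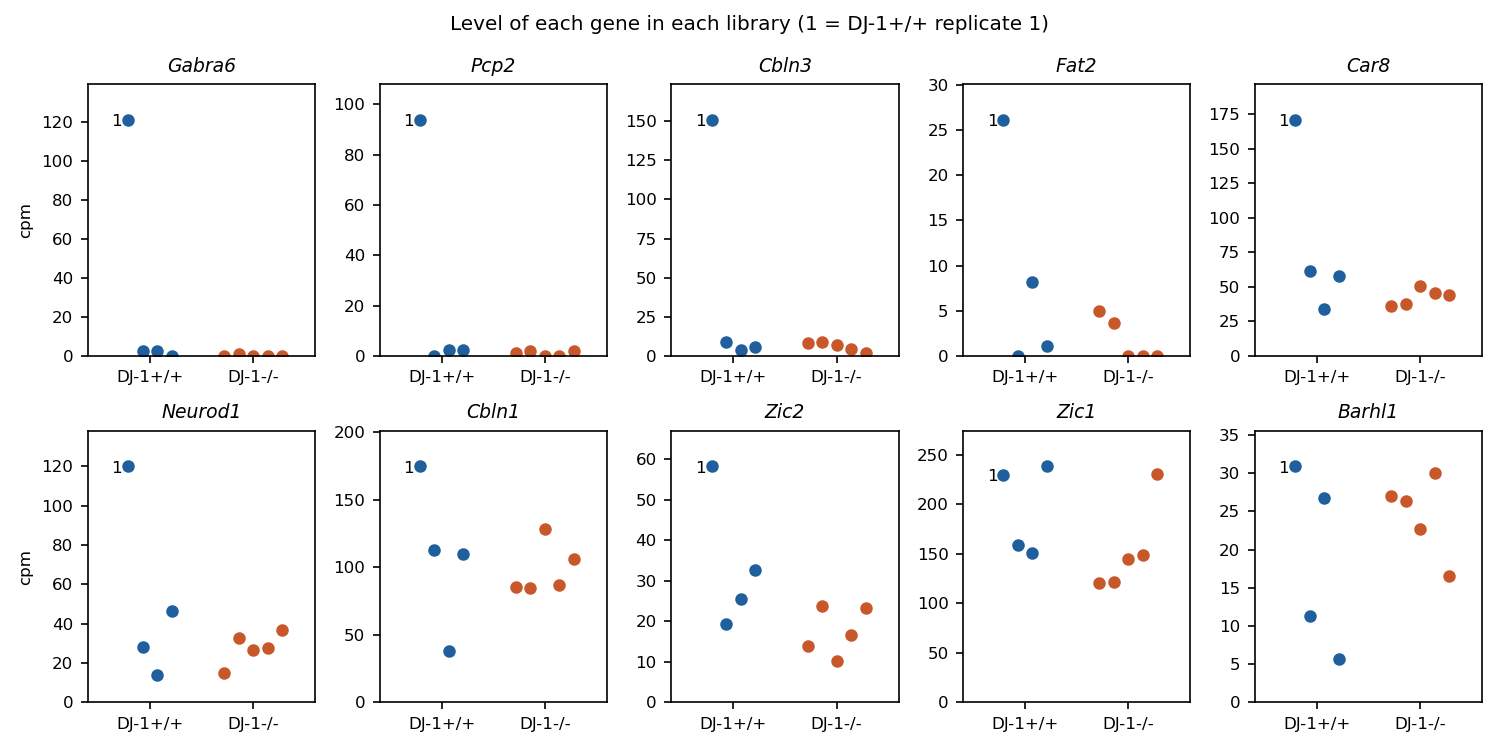
Level in cpm (linear axes from 0, 1 panel per gene) of the 10 genes in each of the 4 DJ-1+/+ (blue) and 5 DJ-1-/- (orange) libraries, 1 point per library in order of replicate number, with DJ-1+/+ replicate 1 marked 1. Gabra6, Pcp2 and Cbln3 are at 121, 93.8 and 151 cpm in that library and at 9.11 cpm or less in all others, whereas for Zic1 it is not the highest and for Barhl1 it exceeds the next library by 1.03 times only.

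Car8, Neurod1, Cbln1 and Zic2 were above 3 counts in all 9 libraries and were highest in DJ-1+/+ replicate 1. Car8 (chromosome 4, 8143362 to 8239041, minus strand) was at 171, 61.4, 33.7 and 57.6 cpm in DJ-1+/+ and at 36.0, 37.3, 50.5, 45.5 and 43.9 cpm in DJ-1-/- mice. Without DJ-1+/+ replicate 1 its levels overlapped between genotypes, and the high library was 2.79 times the next (interval 2.03 to 3.88). Neurod1 (chromosome 2, 79452521 to 79456751, minus strand) was at 120.0, 28.4, 13.96 and 46.3 cpm in DJ-1+/+ and at 15.01, 32.8, 26.8, 27.9 and 37.0 cpm in DJ-1-/- mice. Its ratio of DJ-1+/+ replicate 1 to the next library was 2.59 (interval 1.79 to 3.82), and the other 3 DJ-1+/+ mice spanned the whole DJ-1-/- range.

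Cbln1 (chromosome 8, 87468405 to 87472609, minus strand) stood out least of these 4 genes in DJ-1+/+ replicate 1. It was at 175, 113, 38.4 and 109 cpm in DJ-1+/+ and at 85.1, 84.7, 128, 86.8 and 106 cpm in DJ-1-/- mice. DJ-1+/+ replicate 1 was 1.36 times the next highest library (interval 1.07 to 1.75), and DJ-1+/+ replicate 3 was the lowest of all 9. Gm2694, on the opposite strand at the same place, had 65 counts in DJ-1+/+ replicate 1, 12 in DJ-1+/+ replicate 3 and between 24 and 39 in the others. Whether the authors counted by strand is not given in the sources used here. Reads of Cbln1 and Gm2694 may thus not be told apart, and the same holds for Pcp2 with Pet100 and for Zic1 with Zic4. Neurod1 overlaps Cerkl on the same strand, where counting by strand would not separate them. Cerkl had 4 counts in DJ-1+/+ replicate 1 and at most 3 elsewhere. Car8 overlaps Gm11799 on the same strand, and the genes overlapping Car8 had 0 counts. Zic2 (chromosome 14, 122475435 to 122479852, plus strand) was at 58.2, 19.3, 25.6 and 32.7 cpm in DJ-1+/+ and at 14.01, 23.7, 10.3, 16.5 and 23.4 cpm in DJ-1-/- mice. Its ratio was 1.78 (interval 1.10 to 2.92), and the other DJ-1+/+ mice overlapped the DJ-1-/- mice.

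Zic1 and Barhl1 did not single out DJ-1+/+ replicate 1. Zic1 (chromosome 9, 91358058 to 91365810, minus strand) was at 229, 159, 151 and 238 cpm in DJ-1+/+ and at 120.1, 121, 144, 149 and 230.0 cpm in DJ-1-/- mice. DJ-1+/+ replicate 4, DJ-1-/- replicate 5 and DJ-1+/+ replicate 1 were thus the high libraries, and the ratio of the last to DJ-1+/+ replicate 4 was 0.963 (interval 0.788 to 1.18). Zic4, which overlaps it on the opposite strand and may share reads with it, was high in the same 3 libraries, at 93.7, 92.6 and 80.8 cpm in the same order, against 31.8 to 39.6 cpm in the other 6.

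Barhl1 (chromosome 2, 28907679 to 28916668, minus strand) was at 30.9, 11.4, 26.8 and 5.64 cpm in DJ-1+/+ and at 27.0, 26.4, 22.7, 30.0 and 16.6 cpm in DJ-1-/- mice. Its ratio of DJ-1+/+ replicate 1 to DJ-1-/- replicate 4 was 1.03 (interval 0.583 to 1.81), so the highest library was not distinguishable from the next at this depth. The low libraries were replicates 2 and 4 of DJ-1+/+, with replicate 5 of DJ-1-/- next.

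Together the 10 genes held 990 of the counts of DJ-1+/+ replicate 1, or 0.118% of its total, against 0.0306% to 0.0499% in the other 8 libraries. Their mean log2(cpm + 1) was 6.60, 3.80, 3.99 and 3.95 in the 4 DJ-1+/+ mice, in order of replicate, and 3.80, 4.11, 3.58, 3.55 and 3.72 in the 5 DJ-1-/- mice. Outside DJ-1+/+ replicate 1 the genotypes overlapped on this measure. DJ-1+/+ replicate 1 held the highest cpm for 9 of the 10 genes, and Zic1 was the exception. Of the 9 genes with at least 45 counts (Fat2 had fewer), it was highest for 8, where 12.7% of all 14328 genes with that many counts were highest in this library. It exceeded the next library by more than 1.5 times for 6 of them, where 0.516% of those genes did so. Both counts rest on the library that led to the choice of the genes. Gabra6 and Pcp2 had 5 and 9 counts in the other 8 libraries, so they reached 45 counts through DJ-1+/+ replicate 1 alone. Across the 9 libraries Pearson's r between a gene's log2(cpm + 1) and the mean of the other 9 genes ran from 0.19 for Barhl1 to 0.94 for Pcp2. Without DJ-1+/+ replicate 1 it ran from -0.64 for Cbln1 to 0.52 for Zic2, over libraries that share their depth and cell mixture.

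Other genes known from cerebellar neurons were read from lists drawn up with earlier results known. Of 13 further granule cell genes with at least 45 counts, 7 were highest in DJ-1+/+ replicate 1 and 4 were over 1.5 times the next library. Those were Il20rb (30.9 cpm against at most 5.68), En2 (72.4 against at most 28.9), Pax6 (96.2 against at most 53.5) and Mab21l1 (79.6 against at most 47.7). Il20rb had 26 of its 50 counts in DJ-1+/+ replicate 1 and reached 45 only through that library. En2 and Pax6 encode transcription factors of the developing and adult cerebellum. Gabrd, the delta subunit that pairs with GABRA6 in granule cells, did not have its highest level there: its 36.8 cpm in that library compared with 75.6 cpm in DJ-1+/+ replicate 4, with 66.3 cpm in DJ-1-/- replicate 5 and with 4.65 to 20.6 cpm in the other 6. Of 13 Purkinje cell genes, 9 were highest in DJ-1+/+ replicate 1 and 2 passed 1.5 times. Ppp1r17, a phosphatase regulator of Purkinje cells, was at 62.9 cpm against at most 11.4, and Homer3, a postsynaptic scaffold, at 40.4 cpm against at most 24.4, with ratios of 5.54 (interval 2.79 to 12.2) and 1.65 (interval 0.932 to 3.0). Skor2 had 1 count in all, in DJ-1+/+ replicate 3. Among 8 genes of other cerebellar cells, 2 were highest in DJ-1+/+ replicate 1 and 1 passed 1.5 times, which was Gdf10 of Bergmann glia (65.3 cpm against at most 23.9). Eomes, a factor of unipolar brush cells, was under 45 counts and had 21 of them in DJ-1+/+ replicate 1 and at most 2 elsewhere. Other genes of that list were not high in DJ-1+/+ replicate 1. Grm2 was at 19.0 cpm there against 11.6 to 46.3 elsewhere, and Klhl1 at 74.8 against 73.4 to 108. Sorcs3 was at 97.4 against 81.4 to 134 cpm, and Lgi2 at 134 against 103 to 158 cpm.

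Among 20 relatives and partners of the 10 genes with at least 45 counts, 4 were highest in DJ-1+/+ replicate 1 and only Barhl2 passed 1.5 times (26.1 cpm against at most 13.6). The cerebellin Cbln2 was at 47.5 cpm in DJ-1+/+ replicate 1 and between 44.2 and 141 elsewhere, and Cbln4 at 71.3 cpm, within the 51.2 to 74.3 of the others. Itpr1, the partner of CAR8, was at 172 cpm against 92.0 to 137.

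**Figure D2:**
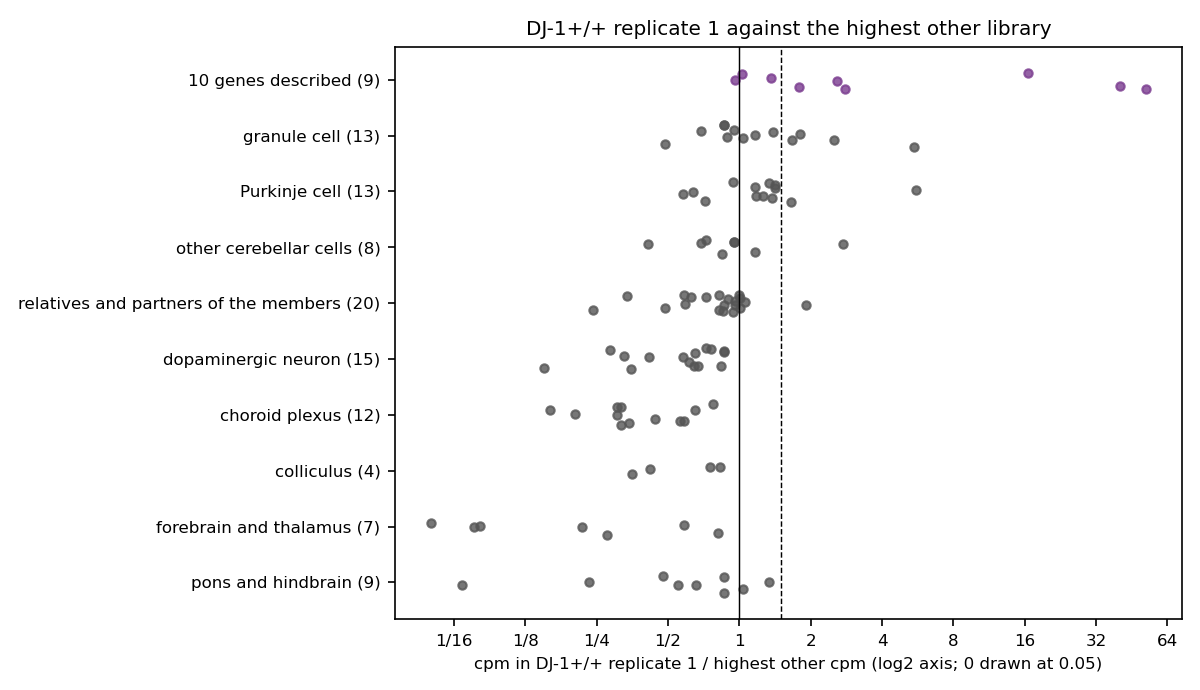
Ratio of the cpm in DJ-1+/+ replicate 1 to the highest cpm among the other 8 libraries (log2 axis), 1 point per gene with at least 45 counts, for the 10 genes described and for each list of marker genes (number of genes in parentheses). The solid line marks a ratio of 1 and the dashed line 1.5. Gabra6, Pcp2 and Cbln3 lie to the far right at 52.1, 40.3 and 16.6, and no dopaminergic, choroid plexus, collicular or thalamic gene passes 1. Gabra6, Pcp2 and Il20rb reach 45 counts only through DJ-1+/+ replicate 1.

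Markers of neighbouring regions also differed between libraries. In DJ-1+/+ replicate 1 the thalamic factors Tcf7l2 (89.1 cpm), Shox2 (47.5 cpm) and Lef1 (9.50 cpm) were at 0.276, 0.217 and 0.0758 times the highest other library. The highest levels of Tcf7l2, 323 and 322 cpm, were those of DJ-1+/+ replicate 4 and DJ-1-/- replicate 5, which were also high for Zic1, Zic4 and Gabrd. The same 2 libraries had at most 2 counts of Tph2 and 0 of Slc6a4 and Hoxb3, genes of serotonergic neurons and of the hindbrain, and they were among the 3 low libraries for Barhl1. In the other 7, Tph2 was between 40.1 and 111 cpm. Dbh and Slc6a2, markers of noradrenergic neurons, were at 52.3 and 76.0 cpm in DJ-1+/+ replicate 1, and at most 4.65 cpm each in DJ-1+/+ replicates 2 to 4. In the DJ-1-/- mice Dbh ran from 0.974 to 39.0 cpm and Slc6a2 from 0 to 73.1 cpm. None of the 15 dopaminergic, 12 choroid plexus, 4 collicular and 7 forebrain and thalamic genes with at least 45 counts was highest in DJ-1+/+ replicate 1, and 2 of 9 pontine and hindbrain genes were (Dbh and Slc6a2). Choroid plexus genes were nevertheless second highest there, with a mean log2(cpm + 1) of 4.40 over the 15 genes tested, against 5.996 in DJ-1+/+ replicate 4 and 3.09 to 3.76 in the other 7. Ttr, the transthyretin gene of that tissue, was at 216 cpm in DJ-1+/+ replicate 1, at 386 cpm in DJ-1+/+ replicate 4 and between 28.4 and 134 cpm in the other 7. The part of these regional markers in the levels of the 10 genes was not tested.

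**Figure D3:**
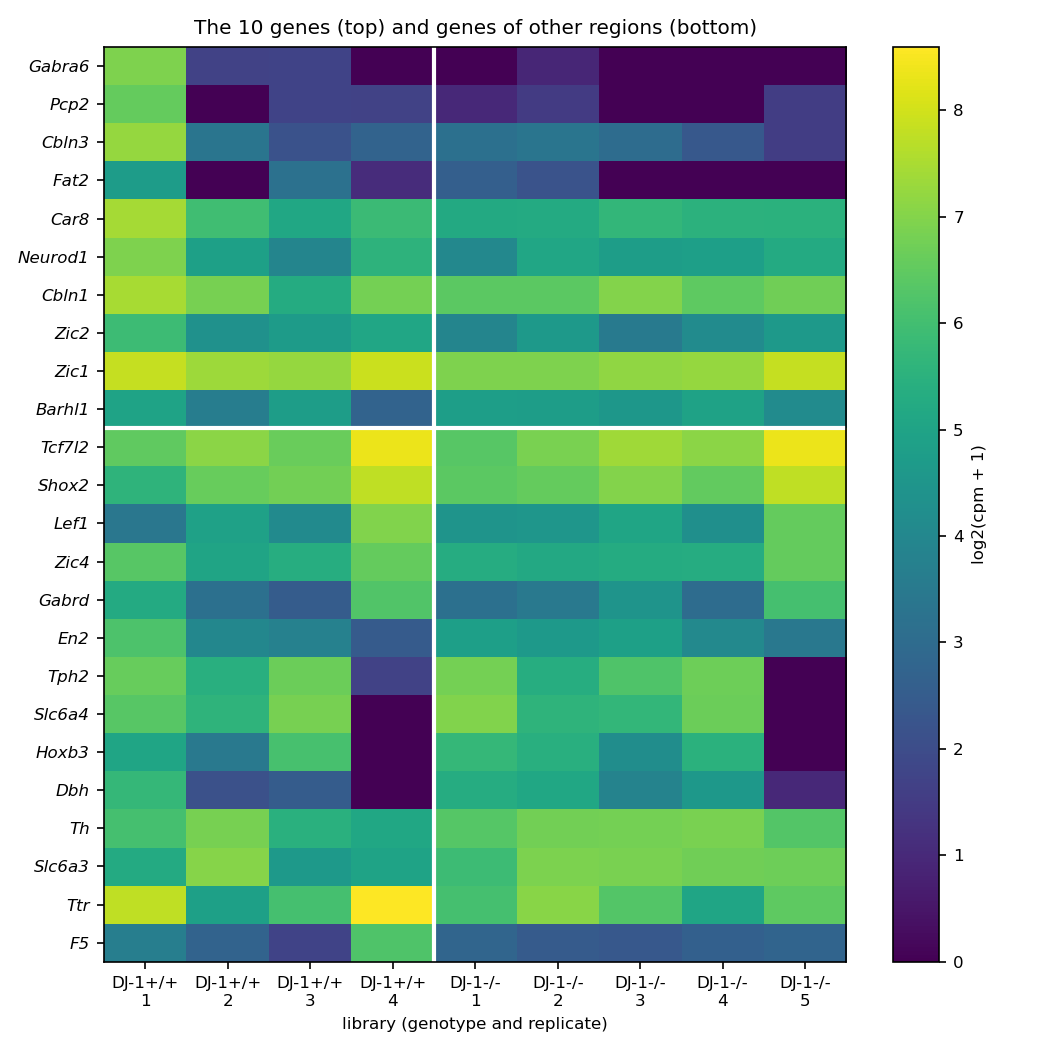
Level as log2(cpm + 1) (colour scale from 0) of the 10 genes (above the white line) and 14 genes of other lists (below), in each library, with DJ-1+/+ to the left and DJ-1-/- to the right of the vertical line. DJ-1+/+ replicate 1 is the brightest column for the upper rows except Zic1, and by little for Barhl1. DJ-1+/+ replicate 4 and DJ-1-/- replicate 5 are bright for Zic1, Tcf7l2, Shox2, Lef1, Zic4 and Gabrd and dark for Tph2, Slc6a4 and Hoxb3.

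Genes with the most similar pattern were ranked by Pearson's r with the mean of the 10 genes, among 12401 genes with at least 100 counts. The leading ones were Nrep (r = 0.98), Pax6 (0.93), Eed (0.91) and Atoh7 (0.91), followed by Spata13, Xbp1, Mia2, 1600020E01Rik, n-R5-8s1, Reln, Ppm1d, Slc27a3, Tbl1xr1, 1190002N15Rik and Prrt1, down to 0.88. All 15 were highest in DJ-1+/+ replicate 1, where 12.7% of all genes with at least 45 counts were. That follows largely from the ranking, since the mean of the 10 genes was itself far higher there, and it supports nothing. The interval of the ratio to the next library included 1 for some, as for Eed (0.862 to 1.94) and Slc27a3 (0.632 to 2.89). For others it did not, as for Nrep (1.33 to 2.14). Nrep was at 195 cpm there and between 98.0 and 116 cpm elsewhere, Atoh7, a helix-loop-helix factor, at 70.1 against 11.3 to 20.9 cpm, and Reln, the extracellular protein reelin that granule cells secrete, at 97.4 against 46.4 to 66.5 cpm. Without DJ-1+/+ replicate 1 the r of these 15 genes ran from -0.03 to 0.73, and none of them was among the 15 genes then ranked highest.

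By size instead of shape, 21 genes other than the 10 had at least 20 counts in DJ-1+/+ replicate 1 and more than 2 times the cpm of any other library. The 15 with the largest ratios were Eomes, Crtam, Bcl2l15, Mybpc3, Exph5, Cnpy1, Ppp1r17, Il20rb, Arhgef33, Atoh7, Il16, Aqp6, Gdf10, Gm28439 and Gm10800, with ratios from 10.97 to 2.67. Of these, 4 stood on the lists above. Crtam was at 58.2 cpm against at most 6.20 cpm, a ratio of 9.39 (interval 4.02 to 26.8). Cnpy1, a gene of the midbrain-hindbrain boundary and cerebellum, was at 89.1 cpm against at most 15.5 cpm, a ratio of 5.76 (interval 3.28 to 10.8). Among genes with at least 45 counts, DJ-1+/+ replicates 1, 4 and 2 had 26, 18 and 12 that were over 2 times all other libraries, and each of the other 6 libraries had between 1 and 5. At 1.5 times the numbers were 74, 66 and 99, so that DJ-1+/+ replicate 2 came first, and between 13 and 33 in the others. These numbers include the 10 genes, which were chosen for their level in DJ-1+/+ replicate 1. Gabra6, Pcp2, Cbln3, Car8 and Neurod1 are among its 26, and 6 of the 10 are among its 74.

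The genotypes were compared with edgeR's quasi-likelihood test for the 18127 genes whose counts summed to 10 or more. With all 9 libraries, 2.82% of all genes had an unadjusted p under 0.05, and 1 gene in all, Park7, had an adjusted p under 0.05 (0.00552%). This contrast includes the library that chose the 10 genes. For these it therefore gives fold changes as a description, and no p. The log2 fold change of DJ-1-/- over DJ-1+/+ was lower than 0 for 9 of the 10 genes. Barhl1 was the exception at 0.40 (SE 0.36), and the median over all genes was 0.007. This direction also rests on DJ-1+/+ replicate 1, so nothing is read from the count of 9.

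Without DJ-1+/+ replicate 1, 8 of the 10 genes had at least 10 counts over the 8 libraries. Gabra6 and Pcp2 had 5 and 9 counts and passed the filter on low counts through DJ-1+/+ replicate 1 alone. Together with Fat2 they were at or under 3 counts on average in both genotypes, and no fold is given. Of the other 7 genes, 4 had a log2 fold change below 0 and 3 above, with a median of -0.08 against 0.01 over all genes. The lowest unadjusted p of the 7 was 0.0624 (edgeR's quasi-likelihood test, Barhl1), while 2.36% of all genes fell below 0.05. At such a share 7 genes would seldom include a call, so nothing is read from its absence. Gabra6, Pcp2 and Fat2 were too low for a difference to be detected and are not counted here. The adjusted p of edgeR's test rounded to 0.999 or above for each of the 7, and 1 gene in all passed, again Park7 (0.00552%).

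Among these 7 genes, Cbln3, Neurod1 and Car8 differed most between the fits. The log2 fold change of Cbln3 was -2.76 (SE 0.88) with 9 libraries and 0.00 (SE 0.51) with 8. Without DJ-1+/+ replicate 1 the wild-type mean was 6.07 ± 2.83 cpm (SD, n = 3) and the mean of the DJ-1-/- mice 6.08 ± 2.96 cpm (SD, n = 5). Car8 moved from -0.92 (SE 0.34) to -0.26 (SE 0.20), and Neurod1 from -0.89 (SE 0.43) to -0.08 (SE 0.33). For Cbln1 the direction itself changed, from -0.15 (SE 0.26) to 0.17 (SE 0.24). Zic2 went from -0.93 (SE 0.32) to -0.55 (SE 0.30), the means being 25.9 ± 6.71 cpm (SD, n = 3) and 17.6 ± 5.86 cpm (SD, n = 5). Zic1, in which DJ-1+/+ replicate 1 was not the highest library, hardly moved, from -0.35 (SE 0.18) to -0.26 (SE 0.20). Barhl1 was at 0.75 (SE 0.37) without that library, with 14.6 ± 10.9 cpm (SD, n = 3) against 24.5 ± 5.15 cpm (SD, n = 5), and overlapped between genotypes.

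**Figure D4:**
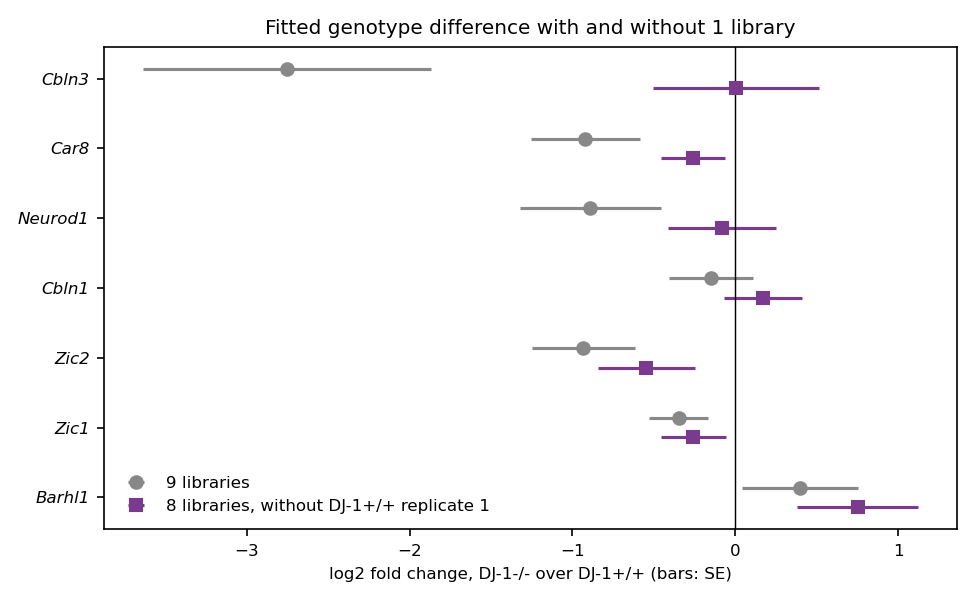
Log2 fold change of DJ-1-/- over DJ-1+/+ with its SE for the 7 genes with a fold, from the fit of all 9 libraries (grey circles) and from the fit of 8 libraries without DJ-1+/+ replicate 1 (purple squares). Cbln3 moves from -2.76 to 0.00, and Zic1 differs by less than 1 SE between the fits.

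In the same 8 libraries the related lists were read against their background of 2.36%. Of 14 granule cell genes tested, 1 had an unadjusted p under 0.05 (En2, higher in DJ-1-/-), and the median log2 fold change was -0.05. Of 14 Purkinje cell genes 1 did (Itpr1, lower in DJ-1-/-), with a median of -0.07. Of 10 genes of other cerebellar cells 2 did (Tfap2b and Klhl1, both higher in DJ-1-/-), with a median of -0.03, and of 20 relatives and partners none, with a median of -0.06. Tlx3 of the granule cell list and Eomes of the other cerebellar cells passed the filter on low counts only through DJ-1+/+ replicate 1. That library held 5 of the 14 counts of Tlx3 and 21 of the 26 of Eomes. No gene of these lists had an adjusted p under 0.05 in either fit. With 9 libraries, 2.82% of all genes had an unadjusted p under 0.05. Of the 14 granule cell genes 2 did and of the 14 Purkinje cell genes 3, all lower in DJ-1-/- mice. Of the 10 genes of other cerebellar cells 1 was lower and 1 higher, and of the 20 relatives 2 were lower. This fit includes DJ-1+/+ replicate 1, whose levels were known when the lists were drawn up, so nothing is read from these counts.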

How the data were processed

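The authors deposited, for each of the 9 mice, whole-number UMI counts per Ensembl gene without normalization, listing genes with at least 1 count. Libraries were made from total RNA with the QuantSeq 3′ mRNA-Seq FWD kit. The submitters' processing notes name fastp 0.20.0, STAR 2.7.3a, featureCounts 2.0.0, UMI-tools 1.0.0 and GRCm38. The annotation release and the strand setting are not given in the sources used here.

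Counts were joined by identifier, an unlisted gene was set to 0, and 26570 of 26602 identifiers matched a GENCODE M21 symbol. Groups and replicate numbers came from the labels. Genes whose counts summed to 10 or more over the 9 libraries were tested with edgeR 4.0.16 (glmQLFit, glmQLFTest, TMM, genotype as the only term) in R 4.3.3, with Benjamini-Hochberg adjustment over all 18127 genes, once with all libraries and once without DJ-1+/+ replicate 1. The SE is the fold change divided by the square root of F. Ratios between libraries carry exact conditional binomial 95% intervals (scipy 1.17.1). The p-values measure the spread between animals of this series only.

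The 10 genes and the 9 marker lists were chosen with earlier results of these data known. Named besides the 10 are Park7, genes of the lists, the 15 genes most like the mean of the 10 (at least 100 counts) and the 15 with the largest ratio of DJ-1+/+ replicate 1 to the highest other library (at least 20 counts there). Genes of overlapping position were named after their values were seen. Alternatives were RLE size factors, library totals only, no filter, at least 45 counts, DESeq2 1.42.0, a replicate block, counts thinned to 841974 per library, another pseudocount and each library left out in turn. On counts simulated for the genes tested, 195 of 200 changed genes were recovered in each of the fits. In these, 15 unchanged genes were called among 9 libraries and 20 among 8. The changed genes were drawn only from genes with high mean counts and were given a large fold change of the same size, up or down. Recovery of genes at low counts or of smaller fold changes was not measured.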

Additional observations from a re-analysis of the deposited data

Results flagged for a closer look

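Values were looked at again where the highest or lowest library of a genotype lay farther from its neighbour than Dixon's 95% critical value allows. By chance about 1 in 20 groups does so. Among the 10 genes, their mean and their share of the counts, 6 of 24 groups did. The 10 genes were chosen by their level in DJ-1+/+ replicate 1, so that this number is a description and supports nothing. In DJ-1+/+ replicate 1 these were Gabra6 (121 cpm), Pcp2 (93.8 cpm), Cbln3 (151 cpm) and the mean log2(cpm + 1) of the 10 genes (6.60). In the DJ-1-/- mice they were Gabra6 in replicate 2, where 0.911 cpm is a single count against 0 in the others, and Zic1 in replicate 5 (230.0 cpm), a library that was also high for Tcf7l2 and Zic4.

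Among the 38 other genes named by their ratio or as examples of a list, 18 of 76 groups stood apart, 16 of them in DJ-1+/+ replicate 1. The genes were named for their level in that library, so this number supports nothing. They were Eomes (24.9 cpm), Crtam (58.2 cpm), Bcl2l15 (23.8 cpm), Mybpc3 (34.4 cpm), Exph5 (49.9 cpm), Cnpy1 (89.1 cpm), Ppp1r17 (62.9 cpm), Il20rb (30.9 cpm), Arhgef33 (33.3 cpm), Atoh7 (70.1 cpm), Il16 (29.7 cpm), Gm28439 (23.8 cpm), En2 (72.4 cpm), Tfap2a (17.8 cpm), Dbh (52.3 cpm) and Slc6a2 (76.0 cpm). The remaining groups were Tfap2a in DJ-1-/- replicate 1 (5.00 cpm) and Zic5 in DJ-1-/- replicate 5 (44.8 cpm).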

How the results depend on the processing

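The mean of the 10 genes in DJ-1+/+ replicate 1 stayed between 6.59 and 6.61 on the log2 scale with TMM effective library sizes, thinned counts or a pseudocount of 0.5. With 9 libraries, 511 genes had an unadjusted p under 0.05, and this number was 802 without a filter and 235 with DESeq2, and ran from 348 to 738 with each library left out. The 1 gene with an adjusted p under 0.05 became 36 without a filter and ran from 1 to 2 with each library left out. The split of unadjusted calls, 281 higher and 230 lower in DJ-1-/-, was 256 and 280 with RLE size factors. Without DJ-1+/+ replicate 1, the unadjusted count (427) was 703 without a filter and 139 with DESeq2. It ran from 313 to 868 with a further library left out, the highest without DJ-1+/+ replicate 3. The adjusted count (1) was 30 without a filter and 2 with DESeq2, and ran from 1 to 2. The cause of these changes was not tested.

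A replicate block gave 569 unadjusted and 8 adjusted calls with 9 libraries, and 307 and 4 with 8. Deviations of same-numbered libraries correlated between -0.09 and 0.16, and only number 1 correlated best with its own number. No clear pairing by number was thus seen, but correlations between single libraries cannot decide whether the mice were paired.

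For the 7 genes with a fold in the 8 libraries no alternative gave an adjusted p under 0.05 (lowest 0.904). Values near 0 changed sign. Cbln3 was at -0.0048 with RLE size factors, -0.00041 with at least 45 counts and -0.0063 with DESeq2, and between -0.26 and 0.40 with each library left out. Cbln1 ran from -0.18 (without DJ-1+/+ replicate 3) to 0.39 and Neurod1 from -0.41 to 0.40 (without DJ-1+/+ replicate 4; 0.07 without DJ-1-/- replicate 1), and Neurod1 was at 0.047 with the replicate block. Barhl1 (0.75) ran from 0.37 without DJ-1+/+ replicate 4 to 1.52 without DJ-1+/+ replicate 3, Car8 (-0.26) from -0.48 to -0.11, Zic1 (-0.26) from -0.46 to -0.02 and Zic2 (-0.55) from -0.72 to -0.34. With 9 libraries the replicate block moved Cbln3 from -2.76 to -1.80 and Zic1 from -0.35 to -0.54. Of the 15 genes most like the mean of the 10, none was kept with Spearman's rho or without DJ-1+/+ replicate 1, between 7 and 10 without each other library, and all 15 with at least 50 counts. A range of 0 to 10 thus covers the libraries left out. Depth limits Gabra6, Pcp2 and Fat2, which are at or under 3 counts in most libraries, so that a difference between genotypes was not detectable for them.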

Other observations

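Leaving out DJ-1+/+ replicate 1 also moved other genes of the lists. Slc6a2, the noradrenaline transporter, had a log2 fold change of 0.89 with 9 libraries and 3.79 (SE 0.98, adjusted p = 0.999 from edgeR's test) without that library. Dbh, which makes noradrenaline, went from 0.56 to 2.98 (SE 0.86, adjusted p = 0.999). Both genes had 3, 4 and 0 counts in DJ-1+/+ replicates 2 to 4, at or near the counting limit. In the DJ-1-/- mice Slc6a2 ran from 0 to 73.1 cpm and Dbh from 0.974 to 39.0 cpm, so these folds rest on a low group and a widely spread one. Tfap2b, a factor of cerebellar interneurons that other brain regions make too, went from 0.60 to 1.53 (SE 0.33, adjusted p = 0.999). Tfap2b was at 96.2 cpm in DJ-1+/+ replicate 1, at 28.4, 17.5 and 15.8 cpm in the other DJ-1+/+ mice, and between 35.1 and 101 cpm in the DJ-1-/- mice.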
